A study of Mus musculus with 12 samples.

Results

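The nitric oxide and arginine genes examined here were the nitric oxide synthases Nos1, Nos2 and Nos3, the arginases Arg1 and Arg2, the arginine-making enzymes Ass1 and Asl, the dimethylarginine hydrolases Ddah1 and Ddah2, and ornithine decarboxylase, Odc1. They were listed by name as 10 genes, with earlier results of these data known, and 9 of them were measured by a probe set annotated to that gene alone, among 19938 genes measured in that way. Where a gene had several such probe sets (transcript clusters), the brightest of them on average over the 12 arrays was used. Both clusters of Ass1 are annotated to Gm5424 as well, so Ass1 has no value of its own.

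RNA came from MLO-Y4 cells, an osteocyte-like mouse line that the labels assign to long bone and an age of 14 days, and the arrays were of the type Mouse Gene 1.0 ST from Affymetrix. The cells stayed for 48 h at the μ-g, 1-g or 2-g position inside a superconducting magnet whose strong field has a steep gradient (LG-HMF), or in an incubator under normal gravity outside the magnet (control), with 3 arrays per group. All groups shared the serum-containing medium, the seeding into wells, and the set temperature and CO2 level. In the magnet, temperature and gas were held by its own control systems. The study's methods give the 1-g position a stronger field than the μ-g and 2-g positions. Between control and the μ-g or 2-g group, field, gravity and place of culture therefore cannot be told apart, and between control and 1-g, where gravity is the same, field and place of culture cannot. Between 1-g and the μ-g or 2-g group, field strength, gravity and position in the magnet differ together and cannot be told apart. Between μ-g and 2-g the field is equal in strength, but the direction of the magnetic force and the position differ along with gravity. All results come from a single cell line. The labels call the samples biological replicates but do not say whether they came from separate cultures, so p-values measure only the spread between these samples, which may be technical.

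Nitric oxide is a short-lived gas that osteocytes release when bone is loaded, and it is made from L-arginine with citrulline as the other product. Arginases use up the same substrate and yield ornithine, which ornithine decarboxylase turns into putrescine at the entry to polyamine synthesis. Ass1 and Asl rebuild arginine from citrulline, and the Ddah enzymes break down asymmetric dimethylarginine, a natural inhibitor of the synthases. Nos1 is known from neurons, Nos3 from endothelium, and Nos2 is the inducible form best known from activated macrophages.

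Values are log2 intensities, so a difference of 1 is a change by a factor of 2, and the level of one gene cannot be set against that of another because their probes differ. The median over genes of their mean level was 7.5, and it marks array signal only roughly, since probes differ here as well. Nos1, Nos3, Ddah1 and Arg1 lay below this median and Nos2, Ddah2, Arg2, Asl and Odc1 above it. Of 10 measured osteocyte and osteoblast markers, Pdpn, Gja1, Alpl and Col1a1 were above that median, while Dmp1, Sost, Mepe, Phex, Fgf23 and Sp7 were below it. All 7 endothelial, all 6 neuronal and all 4 measured hepatocyte markers were below it, and of 9 macrophage markers Cd68 and Cd14 were above it.

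The changes in these genes were found where 2-g was one of the groups compared. In set 2, which compares 2-g with control, 3 of the 9 measured genes passed at an adjusted p under 0.05, against 3.42% of all genes. Nos2 rose, and Arg2 and Odc1 fell. In set 4, which sets μ-g against 2-g, 1 of 9 passed, against 3.08% of all genes, and it was Odc1, higher in μ-g. In 2-g v.s. 1-g, 2 of 9 passed, against 2.45% of all genes, with Nos2 higher and Odc1 lower in 2-g. In set 1, μ-g relative to control, 0 of 9 passed in limma, against 0.943% of all genes. In set 3, 1-g relative to control, 0 of 9 passed, against 0.356%, and between μ-g and 1-g 0 of 9 passed, against 0%. At an unadjusted p under 0.05 there were 6 of 9 in set 2 (16.7% of all genes), 5 of 9 in set 4 (17.1%), 5 of 9 in 2-g v.s. 1-g (15.2%), and 0 of 9 in set 1 (14%), set 3 (10.8%) and μ-g v.s. 1-g (2.19%). Sets 1 to 3 share the control arrays, and the comparisons with 2-g share the 2-g arrays, so these counts are not independent of each other.

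The median log2 fold change of the 9 genes was near that of all genes in every comparison, at -0.05 against 0 in set 2 and 0.04 against 0.03 in set 4. The 3 arrays of 2-g lay wholly apart from the 3 of control for 5 of 9 genes, namely Nos2, Ddah2, Arg2, Asl and Odc1, against 21.2% of all genes. The same 5 genes were free of overlap in set 4, against 21.1% of all genes, and in 2-g v.s. 1-g, against 19.5%. Of the 9 genes, 0 were free of overlap in set 1, set 3 or μ-g v.s. 1-g, against 17.2%, 15% and 5.63% of all genes.

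**Figure D1:**
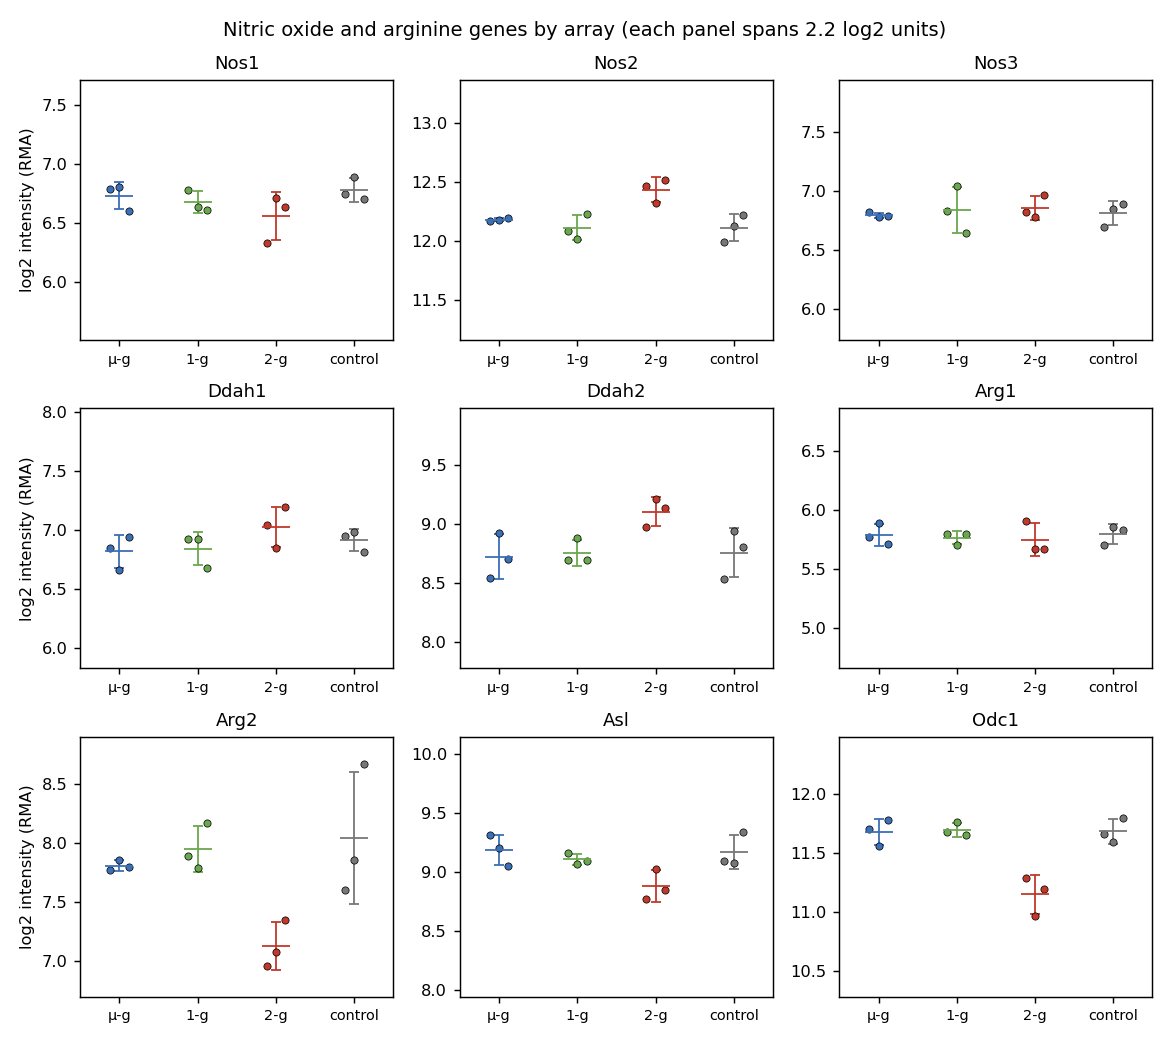
Log2 intensity (RMA) of the 9 measured genes on each of the 12 arrays, by group from left to right μ-g, 1-g, 2-g and control; points are arrays, bars the mean and SD of 3 arrays, and each panel spans the same range. For Odc1 the 2-g arrays lie between 10.97 and 11.29, below all 9 other arrays, and for Arg2 control replicate 3 stands at 8.67, above every other array.

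Nos2 was the synthase that changed. Its level on the 3 arrays was 12.17, 12.18 and 12.20 in μ-g, 12.09, 12.02 and 12.23 in 1-g, 12.47, 12.32 and 12.52 in 2-g and 11.99, 12.13 and 12.22 in control. Every 2-g array was thus above all 9 others, and the other 3 groups overlapped. Nos2 rose by a log2 fold change of 0.32 in 2-g relative to control (SE 0.07, 1.25-fold, limma adjusted p = 0.0313) and by 0.32 relative to 1-g (SE 0.07, adjusted p = 0.0382). The log2 difference of μ-g from 2-g was -0.25 (SE 0.07) and missed the threshold at an adjusted p of 0.0855, but passed with the replicate number as a block, at 0.0173. In order of mean level the groups were 2-g (12.43 ± 0.10), μ-g (12.18 ± 0.01), 1-g (12.12 ± 0.11) and control (12.11 ± 0.12; SD, n = 3 each), and without a block no pair of neighbours in this order passed.

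The rise of Nos2 was small and depended on single arrays. Against control the adjusted p was 0.083 without 2-g replicate 1, 0.145 without 2-g replicate 3, 0.116 without control replicate 1, 0.0581 without control replicate 2 and 0.0816 in a fit of the 6 arrays alone, with the log2 fold change between 0.26 and 0.38 when any 1 array was left out. Against 1-g the call was lost without μ-g replicate 1 or 3, 1-g replicate 1 or 2, or 2-g replicate 1 or 3, at adjusted p from 0.0543 to 0.158, after centring of the arrays on their medians (0.0529) and in the 6 arrays alone (0.0794).

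The other synthases gave no passing difference. Nos1, the neuronal form, had log2 levels of 6.79, 6.80 and 6.60 in μ-g, 6.78, 6.63 and 6.61 in 1-g, 6.33, 6.71 and 6.63 in 2-g and 6.74, 6.89 and 6.70 in control. Its lowest array was 2-g replicate 1, and the groups overlapped. The log2 difference of 2-g from control was -0.22 (95% interval -0.42 to -0.02, adjusted p = 0.252). Nos3, the endothelial form, averaged 6.80 ± 0.02 in μ-g, 6.84 ± 0.20 in 1-g, 6.85 ± 0.10 in 2-g and 6.81 ± 0.10 in control (SD, n = 3 each). The interval of its difference from control ran from -0.21 to 0.17 for μ-g, from -0.16 to 0.22 for 1-g and from -0.15 to 0.23 for 2-g.

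Ddah2, the hydrolase isoform above the median of all genes, was highest in 2-g on this array. On the 3 arrays of each group it had log2 levels of 8.54, 8.92 and 8.70 in μ-g, 8.69, 8.88 and 8.69 in 1-g, 8.97, 9.21 and 9.13 in 2-g and 8.53, 8.94 and 8.80 in control. All 2-g arrays were above the 9 others, and in each of the 4 groups replicate 2 was the highest. The log2 difference was 0.34 for 2-g over control (SE 0.11, adjusted p = 0.127), 0.35 for 2-g over 1-g (SE 0.11, adjusted p = 0.139) and -0.39 for μ-g relative to 2-g (SE 0.11, adjusted p = 0.0897), so none passed without a block. With the replicate number as a block the adjusted p was 0.00302 in set 2, 0.00289 in 2-g v.s. 1-g and 0.00138 in set 4, in a fit that called 2050, 1659 and 1997 of 19938 genes. Without μ-g replicate 2, set 4 also passed with no block, at 0.0369.

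Ddah1, the other hydrolase, averaged 6.82 ± 0.14 in μ-g, 6.84 ± 0.14 in 1-g, 7.03 ± 0.17 in 2-g and 6.91 ± 0.09 in control (SD, n = 3 each). Its groups overlapped in all 6 comparisons. The log2 difference of 2-g from control was 0.12 (95% interval -0.10 to 0.33).

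Arg2, the mitochondrial arginase, showed the widest difference of the 9 genes. Its log2 levels were 7.77, 7.86 and 7.80 in μ-g, 7.89, 7.79 and 8.17 in 1-g, 6.96, 7.08 and 7.35 in 2-g and 7.60, 7.86 and 8.67 in control. All 2-g arrays lay below the 9 others, and control replicate 3 lay far above its own group. Arg2 fell by 0.91 on the log2 scale in 2-g relative to control (SE 0.20, limma adjusted p = 0.0291, 0.531 of the control level), and it was the only one of the 9 genes past a fold of 1.5 at an unadjusted p under 0.05 in set 2, against 0.466% of all genes by that rule. By the same rule it was also the only one in set 4 (0.707% of all genes) and in 2-g v.s. 1-g (0.652%), and there was none in set 1 (0.206%), set 3 (0.14%) or μ-g v.s. 1-g (0%). Without control replicate 3 the log2 fold change was -0.60, still past the threshold at an adjusted p of 0.0478. The call was lost without 2-g replicate 1 (0.0847), replicate 2 (0.0858) or replicate 3 (0.0615), and in the 6 arrays alone (0.0954).

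The comparisons of Arg2 that do not use control pointed the same way. The log2 difference was 0.68 for μ-g over 2-g (SE 0.20, adjusted p = 0.0952) and -0.82 for 2-g relative to 1-g (SE 0.20, adjusted p = 0.0555), neither past the threshold. Both passed with the replicate block, at 0.00959 and 0.00382, and both passed in a fit of their 6 arrays alone, at 0.00762 and 0.0114, which leaves the spread of the control arrays out. Without control replicate 3 they also passed, at 0.00763 and 0.00247, and 2-g v.s. 1-g passed without control replicate 1, at 0.0272. By mean level the order from low to high was 2-g (7.13 ± 0.20), μ-g (7.81 ± 0.05), 1-g (7.95 ± 0.20) and control (8.04 ± 0.55; SD, n = 3 each), and without a block the neighbours in this order did not pass.

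Arg1, the liver arginase of the urea cycle, lay well below the median of all genes and averaged 5.79 ± 0.09 in μ-g, 5.76 ± 0.05 in 1-g, 5.75 ± 0.14 in 2-g and 5.80 ± 0.08 in control (SD, n = 3 each). Its groups overlapped in all 6 comparisons, and the interval of the log2 difference of 2-g from control was -0.21 to 0.11.

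Asl, argininosuccinate lyase, was lowest in 2-g. The arrays read 9.31, 9.20 and 9.05 in μ-g, 9.16, 9.07 and 9.09 in 1-g, 8.77, 9.03 and 8.85 in 2-g and 9.09, 9.08 and 9.34 in control. The highest 2-g array was just under the lowest of the others, so the groups did not overlap but came close. The log2 difference was -0.29 for 2-g relative to control (SE 0.09, adjusted p = 0.10), 0.30 for μ-g over 2-g (SE 0.09, adjusted p = 0.0885) and -0.22 for 2-g relative to 1-g (SE 0.09, adjusted p = 0.237), and none passed.

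The clusters that Ass1, argininosuccinate synthase, shares with the mouse gene Gm5424 are given by cluster only, from a fit over all 28856 clusters. Cluster 10363541 had log2 levels of 12.29, 12.38 and 12.18 in μ-g, 12.29, 12.39 and 12.17 in 1-g, 12.08, 12.08 and 12.01 in 2-g and 12.14, 12.13 and 12.18 in control. The 2-g arrays were the lowest, and μ-g and 1-g replicates 1 and 2 the highest. The log2 difference was 0.23 for μ-g over 2-g (SE 0.06, adjusted p = 0.0912) and -0.10 for 2-g relative to control (SE 0.06, adjusted p = 0.56). Cluster 10471154 gave 0.23 (adjusted p = 0.106) and -0.11 (adjusted p = 0.508) in the same comparisons, so neither cluster passed.

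Odc1 had the lowest adjusted p of the 9 genes in each comparison with 2-g. It had log2 levels of 11.70, 11.56 and 11.78 in μ-g, 11.68, 11.76 and 11.65 in 1-g, 11.29, 10.97 and 11.20 in 2-g and 11.66, 11.59 and 11.80 in control. The 2-g arrays stood apart below a narrow band that held the other 9. Odc1 fell by 0.53 on the log2 scale in 2-g relative to control (SE 0.09, 0.691 of the control level, limma adjusted p = 0.00671) and by 0.54 relative to 1-g (SE 0.09, adjusted p = 0.00509), and μ-g was 0.53 above 2-g (SE 0.09, adjusted p = 0.00535). The means were 11.68 ± 0.12 in μ-g, 11.70 ± 0.06 in 1-g, 11.15 ± 0.17 in 2-g and 11.69 ± 0.11 in control (SD, n = 3 each). From low to high the order was thus 2-g, μ-g, control and 1-g, and of the neighbours in it only μ-g and 2-g differed past the threshold. It was the only one of the 9 genes to pass the F test over the 4 groups (adjusted p = 0.00633), against 3.58% of all genes, and its calls in these 3 comparisons held when any 1 array was left out. The log2 fold change in set 2 then ran from -0.60 to -0.44.

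The other cluster annotated to Odc1, 10394770, was fitted on its own. Its log2 levels were 11.48, 11.31 and 11.60 in μ-g, 11.38, 11.43 and 11.35 in 1-g, 11.11, 10.64 and 10.98 in 2-g and 11.46, 11.28 and 11.62 in control. Again the 2-g arrays were the lowest, and replicate 2 was the lowest of them. In the fit over all clusters it fell by 0.54 in 2-g relative to control (SE 0.12, adjusted p = 0.0376), was 0.55 higher in μ-g than in 2-g (SE 0.12, adjusted p = 0.0333), and differed by -0.47 between 2-g and 1-g (SE 0.12, adjusted p = 0.0706).

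**Figure D2:**
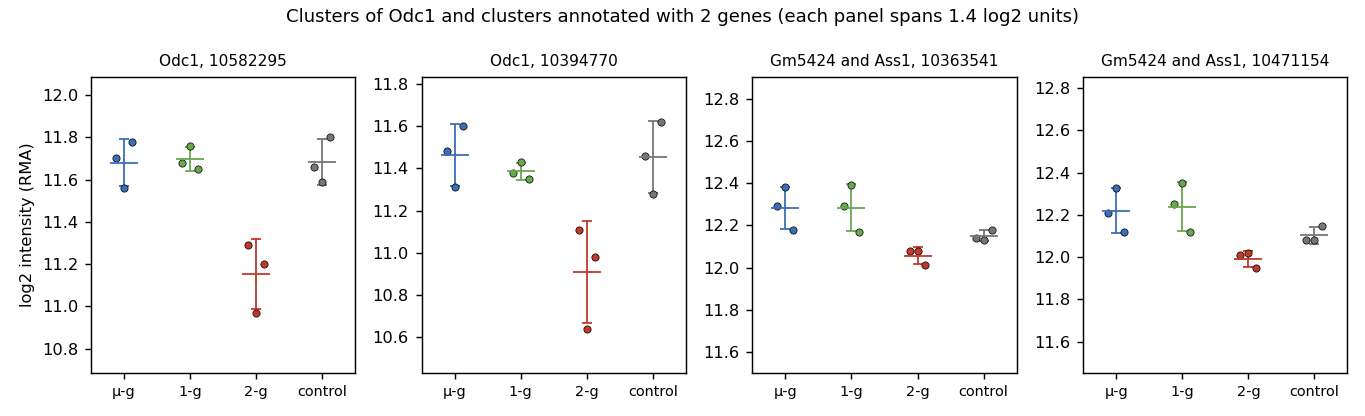
Log2 intensity (RMA) of both clusters of Odc1 and of both clusters annotated to Gm5424 and Ass1 together, by group from left to right μ-g, 1-g, 2-g and control; points are arrays and bars the mean and SD of 3. In both Odc1 panels the 3 arrays of 2-g lie below the 9 others, with values up to 11.29 and 11.11.

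Of the 10 genes, 5 had an entry in the RefSeq promoter table (GRCm38.p6): Nos1, Ddah1, Ddah2, Ass1 and Odc1. The window of Odc1 is shown because, by its brighter cluster, it was the member called in every comparison with 2-g. Its other cluster missed the threshold in 2-g v.s. 1-g (limma adjusted p = 0.0706). The window is cut at the first annotated base of the gene and covers chr12:17544623-17544807 on the plus strand. Matches to GCGTG are in capitals, written CACGC where the match lies on the minus strand.
Odc1 promoter: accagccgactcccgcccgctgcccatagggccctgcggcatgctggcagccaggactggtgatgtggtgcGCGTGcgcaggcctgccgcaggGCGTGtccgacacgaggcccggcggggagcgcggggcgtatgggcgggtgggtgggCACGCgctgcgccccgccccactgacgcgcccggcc
Both strands of the 250 bases before the table's start site were searched for ACGTG and GCGTG (cores of the hypoxia response element), CACGTG (the E-box, which also contains ACGTG), TGACGTCA (the cyclic AMP response element) and the kappa-B consensus. Odc1 had 3 matches to GCGTG, from base -179, -157 and -101 relative to that start, and 0 to the others. GCGTG is found in 28.2% of 32851 promoter windows of this length, ACGTG in 16.6%, CACGTG in 6.02%, TGACGTCA in 1.55% and the kappa-B consensus in 7.25%. These matches are a description of the letters only.

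The genes whose levels ran most like Odc1 over the 12 arrays were Nolc1 (Pearson's r = 0.983), Gdpd1 (0.973), Exosc1 (0.972), Socs2 (0.968) and Noc3l (0.966). Those most opposite were Ppme1 (-0.95) and Adgrg1 (-0.947). The arrays fall into the 4 groups, so these values describe likeness over the same samples and carry no test.

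In set 1 and set 3 the log2 differences of the 9 genes stayed between -0.23 and 0.07 and between -0.10 and 0.03. The widest interval was that of Arg2, from -0.67 to 0.21 for μ-g and from -0.54 to 0.35 for 1-g, so changes of Arg2 within these limits are not excluded. For Nos2 the interval was -0.09 to 0.23 for μ-g and -0.16 to 0.16 for 1-g, and for Odc1 it was -0.19 to 0.18 for μ-g and -0.18 to 0.20 for 1-g. Between μ-g and 1-g the differences ran from -0.14 to 0.08.

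**Figure D3:**
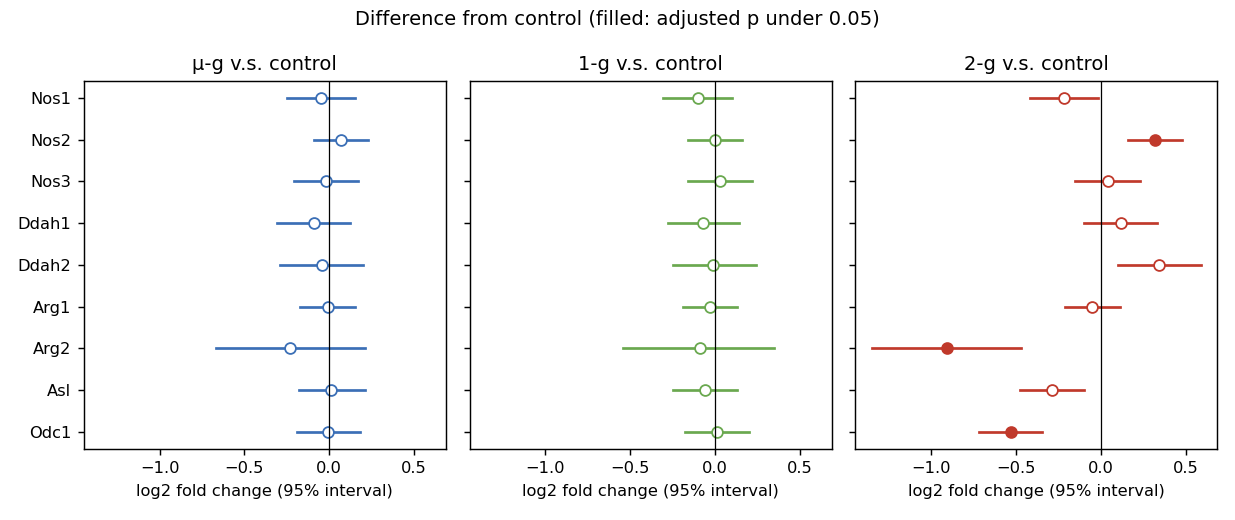
Log2 fold change from control with its 95% interval for the 9 measured genes in μ-g, 1-g and 2-g from left to right, each from 3 arrays against the same 3 control arrays; filled points passed at an adjusted p under 0.05. In μ-g and 1-g all intervals include 0, and in 2-g Nos2 (0.32), Arg2 (-0.91) and Odc1 (-0.53) are filled.

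Around these enzymes, 7 lists of 82 further genes of the same pathways were described, of which 71 were measured and 8 passed the F test over the 4 groups, against 3.58% of all genes. In set 2, 0 rose and 4 fell, which is 5.63% of the 71 against 3.42% of all genes, with a median log2 fold change of -0.01 against 0 for all genes. In set 1, 1 rose and 2 fell (4.23%, against 0.943% of all genes), and in set 3, 2 rose and 1 fell (4.23%, against 0.356%). In set 4, 5 rose and 2 fell (9.86%, against 3.08%), and in 2-g v.s. 1-g, 0 rose and 3 fell (4.23%, against 2.45%). In μ-g v.s. 1-g, 0 of the 71 passed.

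Of 14 measured genes for the cofactor and regulators of the synthases, 1 passed in set 2 (3.42% of all genes) and 1 in set 4 (3.08%). Gch1 fell in set 2. It encodes GTP cyclohydrolase, the first enzyme on the way to tetrahydrobiopterin, the cofactor that nitric oxide synthases need. Its log2 levels were 8.10, 7.99 and 8.06 in μ-g, 8.15, 8.23 and 8.07 in 1-g, 7.93, 7.76 and 7.60 in 2-g and 8.55, 8.15 and 8.49 in control. Control was the highest group and 2-g the lowest, with no overlap between these groups. Gch1 fell by 0.63 in 2-g (SE 0.10, adjusted p = 0.00637), and this call held when any 1 array was left out. The log2 difference from control was -0.35 for μ-g (adjusted p = 0.128) and -0.25 for 1-g (adjusted p = 0.40). Cav1, caveolin, which binds and restrains Nos3, averaged 12.04 ± 0.16 in μ-g, 12.06 ± 0.13 in 1-g, 12.42 ± 0.13 in 2-g and 12.06 ± 0.08 in control (SD, n = 3 each), so 2-g was the group that stood apart. The log2 difference of μ-g from 2-g was -0.38 (adjusted p = 0.0429), and that of 2-g was 0.37 against control (adjusted p = 0.0508) and 0.36 against 1-g (adjusted p = 0.0623). The call of Cav1 in set 4 was lost without μ-g replicate 1 or 3, 1-g replicate 2 or 3, 2-g replicate 2 or 3, or control replicate 1 or 3, at adjusted p from 0.0527 to 0.185.

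The genes through which nitric oxide acts or is removed, such as the guanylate cyclase subunits Gucy1a1 and Gucy1b1 and the cGMP-dependent kinase Prkg1, gave 0 calls among 10 measured genes in any comparison. Of all genes, 0% to 3.42% passed, by comparison. At an unadjusted p under 0.05 in set 2 there were 2 of the 10, near the 16.7% of all genes.

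Of 8 arginine transporter genes, 2 passed in set 4, against 3.08% of all genes, both higher in μ-g than in 2-g. Slc3a2, the heavy chain shared by several amino acid transporters, averaged 13.22 ± 0.06 in μ-g, 13.18 ± 0.04 in 1-g, 12.99 ± 0.08 in 2-g and 13.18 ± 0.06 in control (SD, n = 3 each). Its partner Slc7a7 averaged 7.41 ± 0.15 in μ-g, 7.40 ± 0.12 in 1-g, 7.08 ± 0.04 in 2-g and 7.15 ± 0.08 in control (SD, n = 3 each). The log2 differences were 0.24 for Slc3a2 (adjusted p = 0.044) and 0.33 for Slc7a7 (adjusted p = 0.0399), and the median of the 8 was 0.22 in set 4 against 0.03 for all genes. Slc3a2 was lost without any array other than 2-g replicate 1 and control replicate 2, at adjusted p from 0.052 to 0.191. Slc7a7 was lost without any μ-g array, any 2-g array or control replicate 3, at 0.0546 to 0.132. The main carriers of arginine, Slc7a1 and Slc7a2, had log2 differences of 0.32 (adjusted p = 0.464) and 0.19 (adjusted p = 0.443) in set 4, and of -0.33 (adjusted p = 0.466) and -0.08 (adjusted p = 0.825) in set 2.

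Of 10 measured genes of the urea cycle and of arginine and proline metabolism, Aldh4a1 alone passed, in set 3, where 0.356% of all genes did. It acts in the breakdown of proline to glutamate. Aldh4a1 had log2 levels of 8.61, 8.66 and 8.49 in μ-g, 8.65, 8.69 and 8.75 in 1-g, 8.51, 8.46 and 8.53 in 2-g and 8.32, 8.33 and 8.39 in control, so control was below all magnet groups. It rose by 0.35 in 1-g relative to control (SE 0.05, adjusted p = 0.0228), a call lost without any 1-g array or control replicate 1 or 2, at adjusted p from 0.0626 to 0.121. Oat, which joins ornithine to proline synthesis, had a log2 difference of 0.08 in set 2 (adjusted p = 0.479).

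Of 12 measured polyamine genes, 1 passed in each of set 1 (0.943% of all genes), set 2 (3.42%), set 3 (0.356%) and set 4 (3.08%). Sat1, which acetylates spermidine and spermine on the way to their breakdown or export, was lower in all magnet groups. The log2 levels of Sat1 were 10.77, 10.70 and 10.71 in μ-g, 10.65, 10.79 and 10.79 in 1-g, 10.71, 10.75 and 10.69 in 2-g and 10.98, 11.09 and 11.04 in control. The magnet groups overlapped each other and all lay below control, unlike Odc1, which stood apart in 2-g alone. Sat1 fell by 0.31 in μ-g (adjusted p = 0.0209), by 0.29 in 1-g (adjusted p = 0.0374) and by 0.32 in 2-g (SE 0.05 each, adjusted p = 0.00752), all against the same control arrays. The call in 2-g held when any 1 array was left out, the one in μ-g was lost without μ-g replicate 1 or 3 or control replicate 2 or 3 (0.0648 to 0.0927), and the one in 1-g without any array other than μ-g replicate 2 (0.0517 to 0.154). Azin2, an antizyme inhibitor that protects ornithine decarboxylase, was lower in μ-g than in 2-g (8.96 ± 0.09 in μ-g and 9.20 ± 0.02 in 2-g, SD, n = 3 each, adjusted p = 0.0415), with 9.03 in 1-g and 9.05 in control. That call was lost without any array other than μ-g replicate 2 and control replicates 1 and 3, at 0.0513 to 0.185. Azin1, its relative, had a log2 difference of -0.08 in set 2 (adjusted p = 0.713).

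Of 8 genes for arginine methylation, the source of the dimethylarginines that the Ddah enzymes clear, Prmt1 and Prmt7 passed. The calls were 1 of 8 in set 1 (0.943% of all genes), 2 in set 2 (3.42%), 1 in set 4 (3.08%) and 1 in 2-g v.s. 1-g (2.45%). Prmt1, the main asymmetric methyltransferase, averaged 9.97 ± 0.03 in μ-g, 10.04 ± 0.06 in 1-g, 9.96 ± 0.09 in 2-g and 10.26 ± 0.06 in control (SD, n = 3 each). It fell by 0.28 in μ-g (adjusted p = 0.0414) and by 0.30 in 2-g (adjusted p = 0.0157) relative to control. The call in 2-g was lost without 2-g replicate 3 or control replicate 1 or 3 (0.0567 to 0.0828), and the one in μ-g without any array other than μ-g replicate 2, 1-g replicate 2 and 2-g replicate 3 (0.0509 to 0.171). Prmt7, which monomethylates arginine, averaged 9.58 ± 0.06 in μ-g, 9.61 ± 0.13 in 1-g, 9.18 ± 0.16 in 2-g and 9.61 ± 0.14 in control (SD, n = 3 each), so like Odc1 it was lowest in 2-g. It fell by 0.43 in 2-g relative to control (adjusted p = 0.0247) and by 0.43 relative to 1-g (adjusted p = 0.0292), and was 0.40 higher in μ-g than in 2-g (adjusted p = 0.0365). These calls of Prmt7 were each lost without 2-g replicate 2 or 3, and also without control replicate 1 or 3 in set 2, without 1-g replicate 1 or 2 against 1-g, and without any μ-g array in set 4, at adjusted p from 0.0592 to 0.152.

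Among 9 measured transcription factors known to act on Nos2 or Arg1, Epas1 and Pparg passed. The calls were 1 of 9 in set 1 (0.943% of all genes), 1 in set 3 (0.356%), 2 in set 4 (3.08%) and 2 in 2-g v.s. 1-g (2.45%). Epas1, the oxygen-sensing factor HIF-2α, had log2 levels of 8.69, 8.75 and 8.66 in μ-g, 8.52, 8.59 and 8.54 in 1-g, 8.03, 7.91 and 7.96 in 2-g and 8.17, 7.98 and 8.02 in control. It was high in μ-g and 1-g, and 2-g and control overlapped. Epas1 rose by 0.64 in μ-g (adjusted p = 0.000852) and by 0.49 in 1-g (adjusted p = 0.00894) relative to control, and was 0.73 higher in μ-g than in 2-g (SE 0.06 each, adjusted p = 2.59e-05). It fell by 0.58 in 2-g relative to 1-g (adjusted p = 0.000153). The call in set 3 was lost without 1-g replicate 1 (0.0565) and in the 6 arrays alone (0.0926). Pparg, a nuclear receptor of fat cell differentiation and alternative macrophage activation, averaged 10.11 ± 0.05 in μ-g, 10.14 ± 0.13 in 1-g, 9.62 ± 0.12 in 2-g and 9.80 ± 0.05 in control (SD, n = 3 each). It was 0.48 higher in μ-g than in 2-g (adjusted p = 0.0034) and 0.52 lower in 2-g than in 1-g on the log2 scale (-0.52, adjusted p = 0.0025). Hif1a and Cebpb had log2 differences of 0.01 (adjusted p = 0.947) and -0.07 (adjusted p = 0.653) in set 2. Elsewhere Hif1a differed by 0.21 in set 1 (adjusted p = 0.0877) and by 0.19 in set 4 (adjusted p = 0.0709). In 2-g v.s. 1-g it differed by -0.15 (adjusted p = 0.185), so it passed in none.

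**Figure D4:**
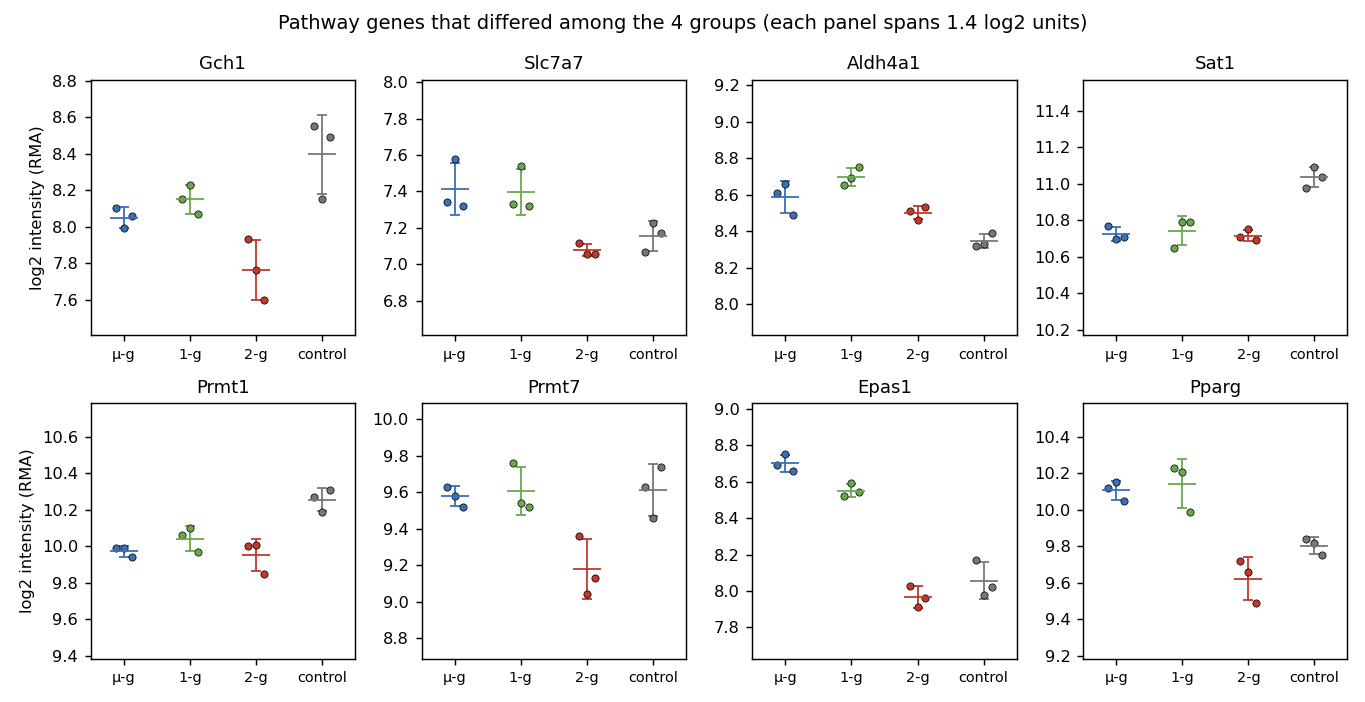
Log2 intensity (RMA) of the 8 pathway genes that passed the F test over the 4 groups, by group from left to right μ-g, 1-g, 2-g and control; points are arrays, bars the mean and SD of 3, and each panel spans the same range. Sat1 is lower in all magnet groups than in control, Prmt7 is lowest in 2-g, and Epas1 is high in μ-g and 1-g.

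Nos2 and Arg2 are also genes of macrophages, and their marker levels were read on the same arrays. The mean log2 level of the 9 macrophage markers ran from 6.86 to 6.95 in μ-g, from 6.81 to 6.95 in 1-g, from 6.77 to 6.83 in 2-g and from 6.81 to 6.95 in control, with Adgre1, Itgam, Ptprc and Csf1r below the median of all genes. Of these markers, Cd68, a lysosomal protein, passed in 2 of the 6 comparisons, with 9.24 in 2-g and 9.89 in 1-g (adjusted p = 0.0077), and 9.78 in μ-g and 9.24 in 2-g (adjusted p = 0.0185). Cd68 was the 1 of 9 macrophage markers called in each, against 2.45% and 3.08% of all genes. It did not pass between 2-g (9.24) and control (9.64, adjusted p = 0.0664). In 2-g v.s. 1-g, Csf1r went the other way by 0.18 (adjusted p = 0.153), and in set 4 by -0.15 (adjusted p = 0.2). The median of the 9 markers was -0.03 and 0.05 in these comparisons, against -0.02 and 0.03 for all genes. Col1a1, a bone matrix collagen, rose in 2-g relative to control (10.26 in 2-g and 9.85 in control, adjusted p = 0.0142) and to 1-g (10.26 in 2-g and 9.88 in 1-g, adjusted p = 0.0208). It was the 1 of 10 measured osteocyte and osteoblast markers called in each comparison (3.42% and 2.45% of all genes). The median of the 10 was 0 in set 2 and 0.04 in 2-g v.s. 1-g, against 0 and -0.02 for all genes. The part of these markers in the differences of Nos2, Arg2 and Odc1 was not tested. On these bulk arrays, fewer cells of a type and less RNA per cell cannot be told apart.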

How the data were processed

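RNA of MLO-Y4 cells was hybridised to 12 arrays, 3 in each of 4 groups. The deposited values are log2 intensities that the authors obtained by RMA, for 28856 transcript clusters. They were used as given, with the background correction and probe summary that the authors chose. Array medians ran from 7.04 to 7.12, Pearson's r across clusters was 0.996 to 0.998 for arrays of a group and 0.995 to 0.998 for arrays of different groups, and 0 pairs of arrays were identical. The number of arrays limits the precision.

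Clusters were named through the platform table and RefSeq symbols (GRCm38.p6): 21789 carried 1 symbol, 1621 several and 5446 none or were not listed. For 999 genes with several clusters the one with the highest mean was taken. All 19938 genes and 12 arrays entered a model with the group means as terms (limma 3.58.1, R 4.3.3), with 8 residual and 4.92 prior degrees of freedom and Benjamini-Hochberg adjustment over all genes. The fit was tested on simulated data whose arrays were independent, so the pairing of replicate numbers described below was not covered. "Rose" and "fell" mean an adjusted p under 0.05. An exact test of 3 arrays against 3 cannot go below a two-sided p of 0.1. The methods of the study name LIMMA with P under 0.05 and a fold limit, tried here as a fold of 1.5 with unadjusted P.

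Replicate numbers were counted as pairing where all 3 same-numbered pairs of deviations from the group means correlated above 0.1. This held in every comparison except set 1, where replicate 3 gave r = 0.0179. The main fit used no block all the same, so its p-values leave this pairing out. The block was run as an alternative. The mean r was 0.342 for the same number. The value for different numbers, -0.171, follows from the centring on group means and is no separate evidence. All 10 genes are named, with the pathway genes that passed in a comparison or in the F test, at most 6 a list. The genes and lists were chosen with earlier results of these data known.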

Additional observations from a re-analysis of the deposited data

How the results depend on the processing

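The counts of the 9 genes that passed were recomputed with the replicate number as a block, above the median level, after centring arrays on their medians, after quantile normalization, with a variance prior that was robust and followed intensity, with the mean over a gene's clusters, without each array, in the 6 arrays of a comparison, with P under 0.05 and a fold above 1.5, and, chosen after seeing the data, in a fit over all 28856 clusters. Set 1, set 3 and μ-g v.s. 1-g gave 0 under all of these. Set 2 (3 genes) gave 1 in the 6 arrays alone (Odc1) and 1 with P and fold (Arg2), and 1 to 3 without 1 array, with 1 (Odc1) without 2-g replicate 1 or 3. With the replicate block, set 2 kept Nos2, Arg2 and Odc1 and added Ddah2 (limma adjusted p = 0.00302). Set 4 (1 gene) gave 4 with the replicate block (Nos2, Ddah2, Arg2 and Odc1), 2 in the 6 arrays alone (Arg2 and Odc1), and 1 to 2 without 1 array, with 2 without μ-g replicate 2 (Ddah2 and Odc1) or control replicate 3 (Arg2 and Odc1). In 2-g v.s. 1-g (2 genes) there were 4 with the replicate block (Nos2, Ddah2, Arg2 and Odc1), 1 after centring (Odc1), 1 with P and fold (Arg2), and 1 to 3 without 1 array, with 1 (Odc1) without μ-g replicate 1 or 3, 1-g replicate 1 or 2, or 2-g replicate 1 or 3. The F test (1 gene) gave 4 with the replicate block, 3 above the median level (Nos2, Arg2 and Odc1), 2 after quantile normalization and 2 with the robust prior (Nos2 and Odc1 in both), and 1 to 2 without 1 array, with 2 without 1-g replicate 3 (Nos2 and Odc1) or control replicate 1 or 3 (Arg2 and Odc1). The cause of these changes was not tested. Some settings also hold fewer arrays or genes, and the part of that was not tested either.

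Over all genes, the replicate block called 1183 in set 1, 2050 in set 2, 476 in set 3, 1997 in set 4, 0 in μ-g v.s. 1-g and 1659 in 2-g v.s. 1-g, against 188, 681, 71, 615, 0 and 489 without it. The 6 arrays alone called 272 in set 2, 431 in set 4 and 361 in 2-g v.s. 1-g, and centring called 650, 585 and 456. The counts without 1 array, and those of the F test outside the main fit, have no share of all genes beside them. They are therefore not read as results about these genes. The 36 single-gene results, members and pathway genes but not Cd68 or Col1a1, lost no call under the block. They had 754 recomputed values, of which 602 kept their side of the threshold, 137 lost a call, 15 gained one and 0 changed direction. Members entered this tally at an unadjusted p under 0.05 in the main fit, and pathway genes at an adjusted p under 0.05. With mostly the same arrays in every setting, a change of direction was therefore unlikely from the start. Members outside the tally did change sign, such as Arg2 in set 1, at -0.23 in the main fit and 0.08 without control replicate 3. The deposited values hold no measure of background, so how far the genes below the median level, Nos1, Nos3, Ddah1 and Arg1, lie above it is unknown.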
